A study of Mus musculus with 2 samples.

Results

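Dendritic cells and Langerhans cells of the mouse tongue carcinoma were described here as 123 cell barcodes out of 22737 that passed the cell filter. Of these, 76 came from a tumour library of JQ1 treatment and 47 from a control tumour library. Single-cell 3′ RNA libraries had been made from the tongues of wild type C57BL/6 mice in which the carcinogen 4NQO (4-nitroquinoline 1-oxide) had induced head and neck squamous cell carcinoma. One tumour library came from 10 days of JQ1, an inhibitor of BET bromodomain proteins, and the other from 10 days of control treatment, so both carried the same carcinogen exposure. How many mice contributed to a library is not stated in the labels. With 1 library per treatment there is no replicate, and every interval is a 95% interval for counting error only. A difference between the libraries therefore cannot be told apart from a difference between tumours or dissociations.

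A member had to give at least 0.5% of its unique molecular identifiers (UMIs, 1 per captured transcript) to the MHC class II genes Cd74, H2-Aa, H2-Ab1 and H2-Eb1. It also needed at least 1 UMI of Flt3, Cd207, Ccr7, Fscn1, Xcr1, Clec9a or Cd209a. It was left out with 3 or more UMIs of the C1q genes, any UMI of Cd3d, Cd3e or Cd79a, or 0.5% or more of its UMIs from Krt5 and Krt14. Members were thus selected on measured levels of these genes, so the levels of those genes are a description and support nothing.

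Dendritic cells take up antigen in a tissue, mature, travel through lymph to the draining node by following CCR7 ligands, and present peptides on MHC molecules to T cells. Conventional type 1 dendritic cells, marked by XCR1 and CLEC9A, cross-present antigen on MHC class I, whereas the type 2 lineage, of which CD209a marks a part, mainly primes helper T cells. Langerhans cells live among keratinocytes of skin and oral epithelium and carry langerin, the lectin encoded by Cd207 that forms their Birbeck granules.

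The JQ1 library held 16233 barcodes and 99565417 UMIs, and the control library 9754 barcodes and 118382532 UMIs. After the filter (at least 200 genes and under 20% mitochondrial UMIs) 14468 JQ1 and 8269 control barcodes were left, with median depths of 3948.5 and 11435 UMIs. Members were alike in depth, with medians of 5571 UMIs in JQ1 and 5731 UMIs in control and sums of 466307 and 283165 UMIs. The libraries differed in epithelium: 1221 kept JQ1 barcodes (8.44%) and 4746 kept control barcodes (57.4%) gave 0.5% or more of their UMIs to Krt5 and Krt14. The libraries shared 40 barcode sequences, of which 0 belonged to members.

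The members fitted the name by some of its marker sets and not by others. Cst3, a cystatin abundant in dendritic cells, reached 13974 CPM (its UMIs per 1000000 UMIs summed) over both libraries' members, against 4936 CPM in the 165 macrophage-gated barcodes, which met the MHC class II, Cd3, Cd79a and keratin limits and had 3 or more C1q UMIs, with no limit on dendritic genes. Wdfy4, needed for cross-presentation, stood at 208 CPM against 13.6 CPM, and Zbtb46, a transcription factor of conventional dendritic cells, had 15 UMIs in 14 of the members against 0 UMIs in those barcodes. Summed markers outside the rule were set against the macrophage-gated barcodes too. They were higher in members for dendritic cells (14832 against 5423 CPM) and the type 1 lineage (1414 against 655 CPM). They were lower for the type 2 lineage (519 against 751 CPM). For Langerhans cells (2081.5 against 2008.4 CPM) and mature, migrating cells (1999 against 1838 CPM) they were close. The dendritic sum includes Cst3, whose 13974 CPM and 4936 CPM made up most of it, so it largely repeats the Cst3 difference. The macrophage gene Apoe was at 16.0 CPM in members, against 11056 CPM in macrophage-gated barcodes. The mast cell proteases Cma1, Tpsb2 and Cpa3 were at 0 in members, but the mast cell marker Kit was at 65.4 CPM. In macrophage-gated barcodes these mast cell markers summed to 24.7 CPM. Siglech, of plasmacytoid dendritic cells, was at 6.67 CPM. Summed with the other plasmacytoid markers Ccr9, Tcf4 and Ly6d it came to 181 CPM in members, against 322 CPM in macrophage-gated barcodes. That sum was 344 CPM in members led by Ccr7 and Fscn1.

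A number of members carried genes of another cell type. At least 2 UMIs of the endothelial genes Pecam1 and Cdh5 were found in 5 JQ1 and 3 control members. All 8 of them had joined by a single Fscn1 UMI, had no UMI of the leukocyte gene Ptprc, and gave 0.596% to 0.775% (JQ1) and 0.540% to 1.14% (control) of their UMIs to the MHC class II genes. Fscn1 encodes fascin, an actin bundler that is not restricted to dendritic cells: it had a UMI in 24.8% of endothelial-gated and 40.1% of keratinocyte-gated JQ1 barcodes, and in 31.7% and 60.2% of the control ones. Another 6 JQ1 and 0 control members had at least 2 UMIs of the collagen and decorin genes Col1a1, Col1a2 and Dcn, and 3 JQ1 and 0 control members had a UMI of the B-cell gene Ms4a1. With neutrophil, erythroid and salivary gland genes added, such members numbered 18 in JQ1 (23.7%) and 4 in control (8.51%), leaving 58 and 43. Transcripts of salivary gland and red blood cells, given here by Muc5b and Hbb-bs, were higher in JQ1 in members and in the macrophage, T cell, fibroblast, endothelial and keratinocyte gates. Muc5b, a salivary mucin gene, had 3279 CPM in 57 JQ1 members, 77.3% of it in 1 of them, against 7.06 CPM in 2 control members. The haemoglobin gene Hbb-bs had 5279.8 CPM in 43 JQ1 members, 92.6% of it in 1 of them, against 0 in control. In T cell-gated barcodes Muc5b had 5265 CPM in JQ1 and 28.8 CPM in control, and Hbb-bs 2025 CPM and 0. Without the other-cell members the median log2 ratio of the 2 measured salivary genes was still 5.28, and the part of such RNA in the differences below was not tested. Ptprc itself had a UMI in 49 JQ1 members (64.5%) and 33 control members (70.2%).

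Dendritic members made up a like share of both libraries. They were 0.525% of kept JQ1 barcodes (exact Clopper-Pearson interval 0.414% to 0.657%) and 0.568% of kept control barcodes (0.418% to 0.755%), a difference of -0.043 percentage points (Newcombe interval -0.257 to 0.150). Among barcodes with a Ptprc UMI the share was 4.33% in JQ1 and 5.87% in control, a difference of -1.54 points (-4.03 to 0.596). The share depended on the epithelium in the denominator. Of barcodes under the keratin limit, members were 0.574% in JQ1 and 1.33% in control, a difference of -0.760 points (-1.21 to -0.401), beside the unequal numbers of keratin-rich barcodes given above. The lowest MHC class II share inside the limit was 0.537% in JQ1 and 0.523% in control, the nearest outside it was 0.499% and 0.417%, and 8 JQ1 and 4 control members lay between 0.5% and 1%. At the lowest allowed count, 1 dendritic UMI, stood 29 JQ1 members (38.2%) and 22 control members (46.8%). The Cd79a limit removed 16 JQ1 and 0 control barcodes that met every other limit.

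Sorting each member by the rule gene group with most UMIs gave 4 groups, a few ties and a remainder with Flt3 alone. Flt3 is the receptor for the growth factor that sustains dendritic cells. The Ccr7-Fscn1 group held 32 JQ1 members (42.1%, 30.9% to 54.0%) and 17 control members (36.2%, 22.7% to 51.5%). The Xcr1-Clec9a group held 14 (18.4%) and 5 (10.6%), the Cd209a group 17 (22.4%) and 6 (12.8%), and Flt3 alone marked 10 (13.2%) and 7 (14.9%). The intervals of these 4 differences all include 0, for example -11.8 to 22.5 points for the Ccr7-Fscn1 group. The Cd207 group differed by more than counting error, with 1 JQ1 member (1.32%, 0.0333% to 7.11%) and 10 control members (21.3%, 10.7% to 35.7%), a difference of -20.0 points (-33.6 to -9.03). With every member thinned to 1000 UMIs it held 2 of 73 JQ1 members (2.74%) and 9 of 44 control members (20.5%). Since 10 of its 11 members came from 1 library, the group cannot be told apart from that library.

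**Figure D1:**
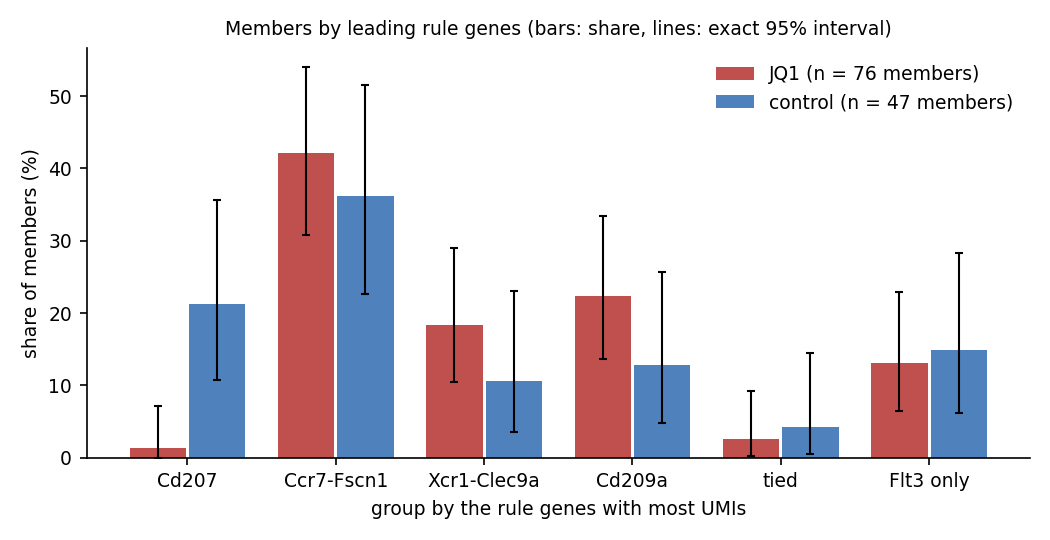
Share of dendritic members (percent, vertical axis) in each rule-gene group, JQ1 left and control right in each pair. Bars are shares and lines are exact 95% intervals for counting error. The Cd207 group is at 1.32% in JQ1 and 21.3% in control, and every other pair of intervals overlaps.

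Genes that the sort had not used differed between the groups. These are descriptions, since all genes of these barcodes come from the cells that were sorted. Over both libraries, the Cd207 group carried Mfge8, which bridges apoptotic cells to phagocytes, at 5809 CPM, the adhesion protein gene Epcam at 699 CPM and Ltc4s, for leukotriene C4 synthesis, at 387 CPM. Tied members aside, no other group exceeded 418 CPM for Mfge8, 368 CPM for Epcam or 37.7 CPM for Ltc4s. The Ccr7-Fscn1 group carried the T-cell attracting chemokines Ccl22 and Ccl17 at 755 and 797 CPM and Il4i1, an amino acid oxidase of mature dendritic cells, at 191 CPM. Ccl22 was higher still in the Cd207 group, at 1119 CPM, and Ccl17 in the Cd209a group, at 950 CPM. The Ccr7-Fscn1 group also held most of the endothelial signal, with Pecam1 at 232 CPM against 9.43 CPM or less in the other groups.

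The Xcr1-Clec9a group was the highest for Irf8, the factor that specifies type 1 dendritic cells, at 1070 CPM. Naaa, a lipid amidase, was at 737 CPM there, Wdfy4 at 347 CPM and the adhesion molecule gene Cadm1 at 92.1 CPM, while Irf4, of the type 2 lineage, had no UMI in the 19 members. The Cd209a group led for the lectin genes Mgl2 (236 CPM) and Clec10a (152 CPM) but its Cst3 of 5242 CPM was near the macrophage-gated 4936 CPM. Members with Flt3 alone carried Naaa at 387 CPM and Ifi205, an interferon-inducible gene of the type 1 lineage, at 321 CPM, the nearest values to those of the Xcr1-Clec9a group among the untied groups.

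**Figure D2:**
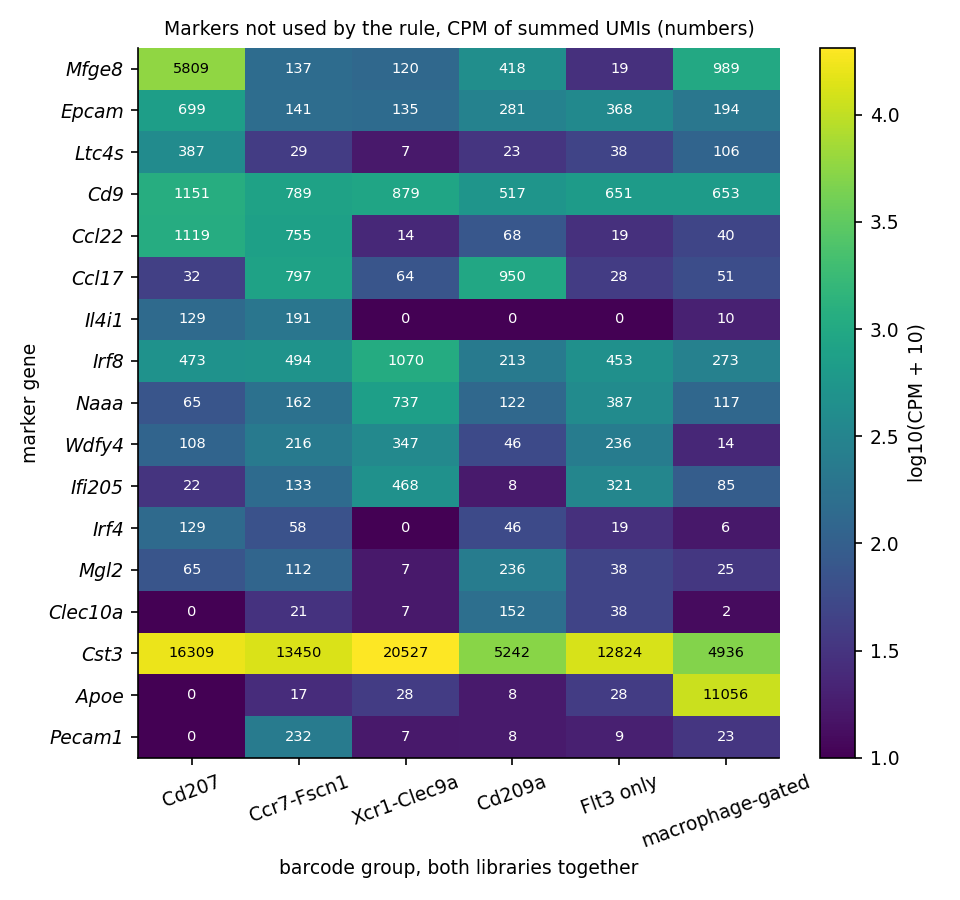
Marker genes (rows) in the rule-gene groups and in macrophage-gated barcodes (columns), both libraries summed; colour is the level on a log scale (log10 of CPM + 10, brighter for higher) and each number is the CPM. Mfge8, Epcam and Ltc4s are highest in the Cd207 group, Ccl22 and Il4i1 in the Cd207 and Ccr7-Fscn1 groups, Irf8 and Naaa in the Xcr1-Clec9a group and Apoe in macrophage-gated barcodes.

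Cd207 lies at chr6:83671207-83677857 (GRCm38.p6). In JQ1 4 members held Cd207 UMIs, numbering 4, 2, 1 and 1. In control 11 members held them, numbering 139, 123, 68, 52, 36, 24, 17, 15, 11, 1 and 1. The sums were 8 UMIs (17.2 CPM) in JQ1 and 487 UMIs (1720 CPM) in control, and the highest JQ1 member was below 9 of the control members. Among T cell-gated barcodes 0 of 268 in JQ1 had a Cd207 UMI, which allows a share of up to 1.12% at a floor of 3 counts, and 1 of 135 in control. Barcodes under the MHC class II limit held 11 of all 41 Cd207 UMIs in JQ1, in 6 barcodes, and 5 of 892 in control, in 5 barcodes.

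The limit on C1q cut through the Cd207-high barcodes. Taking 5 or more Cd207 UMIs as high, 9 control members were high, and 11 more control barcodes met every other limit but had 3 or more C1q UMIs. In JQ1 0 members were high and 2 such barcodes had the C1q UMIs. The 9 high control members and the 11 with C1q were close in Mfge8 (6670 and 7175 CPM), Epcam (743 and 1084 CPM), Pgf (1559 and 2168 CPM) and Il1r2 (2017 and 1933 CPM). The macrophage genes Apoe (0 and 11.2 CPM) and Adgre1 (37.1 and 11.2 CPM) were near 0 in both sets. They differed in Ccr7 (210 and 11.2 CPM) and Ccl22 (1287 and 190 CPM), both of the migrating state. Without any limit on C1q, an alternative chosen after seeing the data, the Cd207 group held 7 of 93 JQ1 barcodes (7.53%) and 24 of 67 control barcodes (35.8%).

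Cd207-high barcodes were also set against the epithelium. Per kept barcode the JQ1 library held 0.0572 times as many as control (2 against 20 barcodes, interval 0.00648 to 0.235). Per 1000 keratin-rich barcodes it held 1.64 (0.198 to 5.92) against 4.21 in control (2.57 to 6.51), a ratio of 0.389 whose interval of 0.0440 to 1.60 includes 1. The 2 JQ1 barcodes had 0 Epcam UMIs, 1 Mfge8 UMI and a median of 39 C1q UMIs, whereas all 20 control ones had Epcam and Mfge8 UMIs and a median of 3 C1q UMIs. The part of the epithelium's share in the Cd207 difference was not tested beyond this ratio.

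Levels in the 2 libraries were compared over members by summing UMIs and dividing the JQ1 CPM by the control CPM, with no test. Of 3217 genes with at least 30 UMIs, 254 were 2-fold or more higher in JQ1 (7.9%) and 181 were 2-fold or more lower (5.63%), and the median log2 ratio was -0.02. In bulk sums over members, fewer cells of a type and less RNA per cell cannot be told apart, and the mix of groups differed between the libraries. List counts are therefore given also without the Cd207 group, where 8.58% of 2879 genes were 2-fold higher and 4.52% lower. For some lists they are given further without the members that carried genes of another cell type, where 7.79% of 2233 genes were higher and 3.81% lower.

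Langerhans cell genes were lower in JQ1 members. Of 14 measured members of the list, 8 were 2-fold or more lower and 0 higher, with a median log2 ratio of -1.40. Mfge8 had 214 CPM in JQ1, in 15 members, against 1932 CPM in control, in 13 members, a 9.01-fold lower level (7.27 to 11.3). Outside the list, the decoy receptor gene Il1r2, whose product binds interleukin 1, had 92.2 CPM against 851 CPM, and Pgf, a growth factor of the VEGF family, 49.3 CPM against 491 CPM. Epcam had 167 CPM in JQ1 and 459 CPM in control, and Cdh1, the E-cadherin by which Langerhans cells hold to keratinocytes, 45.0 and 148 CPM. These differences followed the Cd207 group in part: without it 4 of 12 list genes were 2-fold lower and 1 higher, the median was -0.55, and Mfge8 turned, with 213 CPM in JQ1 against 41.5 CPM in control. Of those JQ1 Mfge8 UMIs 38.4% lay in 1 member, which carried genes of another cell type. Without the other-cell members as well, 3 of 10 were lower, 1 was higher and the median was -0.40. With only the other-cell members left out, where 6.81% of 2569 genes were 2-fold higher and 6.11% lower, 8 of 13 list genes were lower and 0 higher, with a median of -1.45. Il1r2 stayed lower without the Cd207 group, at 92.7 CPM against 364 CPM, with 57.1% of those control UMIs in 1 member. Pgf did not stay clearly lower there, at 49.6 CPM against 67.5 CPM, a ratio of 0.734 whose interval of 0.357 to 1.58 includes 1.

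Genes of mature, migrating dendritic cells were lower in JQ1, by 2-fold or more in 8 of 20 and higher in 1, with a median of -0.84. The median was -0.34 without the Cd207 group, where 4 of 17 genes were lower and 1 higher. Ccl22 had 182 CPM in JQ1 and 756 CPM in control (ratio 0.241, 0.185 to 0.311), each from 12 members. Without the Cd207 group it had 183 CPM against 571 CPM, with 41.2% of JQ1 and 48.2% of control UMIs in 1 member. Ccl17 had 285 CPM from 17 JQ1 members and 706 CPM from 13 control members (ratio 0.404, 0.322 to 0.505). These chemokines, both ligands of CCR4, lie on chromosome 8 at 94745684 to 94751388 and 94809380 to 94812038. Il4i1 had 25.7 CPM against 162 CPM, from 5 members in each library. Ccl5 had 112 CPM against 304 CPM, with 78.8% of JQ1 and 64.0% of control UMIs in 1 member. Among costimulatory genes of the same mature state, Cd80 was lower by 2-fold or more, whereas Cd86, Cd40 and Cd83 differed less. Cd86 had 182 CPM in JQ1 and 265 CPM in control (ratio 0.688), Cd40 66.5 and 70.6 CPM, and Cd83 669 and 618 CPM. Cd274, the checkpoint ligand PD-L1, was 2.07-fold higher (1.30 to 3.42), at 176 CPM in JQ1 against 84.8 CPM in control, but under 2-fold without the Cd207 group, at 177 CPM against 119 CPM.

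Interferon response genes were higher in JQ1 members, 12 of 20 by 2-fold or more and 0 lower, with a median of 1.22. Irf1, a transcription factor of the response, had 380 CPM from 39 JQ1 members and 145 CPM from 20 control members (ratio 2.62, 1.86 to 3.78). The guanylate-binding protein gene Gbp2 had 270 CPM against 95.4 CPM (ratio 2.83, 1.86 to 4.47), and the GTPase gene Irgm1 109 CPM against 28.3 CPM. Ifitm3, an antiviral membrane protein gene with more UMIs than these, had 1285 CPM against 961 CPM, a ratio of 1.34 (1.16 to 1.55). Without the Cd207 group 5 of 19 were 2-fold higher with a median of 0.73, and without the other-cell members too, 11 of 16 were higher and 1 lower, with a median of 1.15.

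The interferon-induced chemokines Cxcl10 and Cxcl9, ligands of CXCR3 on T cells, were higher as well. Cxcl10 had 1261 CPM from 33 JQ1 members and 335 CPM from 16 control members (ratio 3.76, 3.02 to 4.72), with member values of 0 to 15851 CPM in JQ1 and 0 to 9763 CPM in control. Cxcl9 had 948 CPM from 32 members against 367 CPM from 10 members (ratio 2.58, 2.08 to 3.23). The Cxcl9 ratio without the Cd207 group was 1.83 (1.47 to 2.30). The medians of both genes over members were 0 in both libraries, and the largest member held 20.2% of the JQ1 and 28.4% of the control UMIs of Cxcl10. In macrophage-gated barcodes, where 11.2% of 3312 genes were 2-fold higher in JQ1 and 4.38% lower, the Cxcl10 ratio was 1.47 (1.29 to 1.68) and the Cxcl9 ratio 1.11 (0.934 to 1.33). There 8 of 26 interferon genes were 2-fold higher and 0 lower, with a median of 0.54. Fibroblast-gated barcodes had a Cxcl9 ratio of 10.9 and keratinocyte-gated ones 3.83. Whether members differ from these cells was not tested.

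The upstream windows of the higher interferon genes were read for the letters of an interferon-stimulated response element, GAAANNGAAA on either strand, in the 250 bases before each start. The letters were present in 2.98% of 32851 RefSeq windows (GRCm38.p6), or in 3.46% of 27025 genes. Of the 12 interferon genes that were 2-fold higher, 8 matched a window and 6 of these held the letters: Bst2, Gbp2, Gbp7, Irgm1, Isg15 and Slfn5. Of all 20 measured interferon genes 15 matched and 9 held them. Cxcl10 held them 213 to 204 bases before its start, Gbp2 at 59 to 50 bases, and Isg15, a ubiquitin-like modifier gene, in 3 overlapping copies from 78 to 57 bases. The windows of these 3 genes, shown because they hold the letters and belong to genes that were higher in JQ1, are those at chr5:92348890-92349139 (minus strand) for Cxcl10, chr3:142620413-142620662 (plus strand) for Gbp2 and chr4:156200819-156201068 (minus strand) for Isg15. They run 5′ to 3′ toward the start, and capitals mark the match on either strand.
Cxcl10: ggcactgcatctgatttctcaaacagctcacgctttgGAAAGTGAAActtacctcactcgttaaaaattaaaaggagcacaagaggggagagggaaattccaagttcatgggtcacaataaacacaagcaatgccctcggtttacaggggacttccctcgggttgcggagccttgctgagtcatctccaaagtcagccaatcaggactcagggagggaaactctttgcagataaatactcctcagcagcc
Gbp2: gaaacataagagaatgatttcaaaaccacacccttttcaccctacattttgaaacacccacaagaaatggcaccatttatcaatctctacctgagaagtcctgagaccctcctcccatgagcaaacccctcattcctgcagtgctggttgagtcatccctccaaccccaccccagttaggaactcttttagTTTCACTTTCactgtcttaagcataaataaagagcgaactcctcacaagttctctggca
Isg15: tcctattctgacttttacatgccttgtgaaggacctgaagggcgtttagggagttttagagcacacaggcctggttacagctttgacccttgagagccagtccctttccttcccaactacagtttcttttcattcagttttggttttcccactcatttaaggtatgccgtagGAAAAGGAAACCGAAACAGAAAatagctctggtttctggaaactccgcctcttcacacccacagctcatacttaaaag
The window of Cxcl9 held no such letters, and a match describes the letters only.

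Heat-shock and immediate early genes, which also respond to tissue dissociation, were higher in JQ1 members, 9 of 23 by 2-fold or more and 0 lower, with a median of 0.47. The median was 0.90 without the Cd207 group. Hspa1b, an inducible HSP70 chaperone, had 7165 CPM in JQ1 and 2854 CPM in control (ratio 2.51, 2.32 to 2.71). It had a UMI in 72 of 76 JQ1 and 40 of 47 control members, with medians of 5781 and 1703 CPM over members and overlapping ranges of 0 to 48831 CPM and 0 to 34286 CPM. Hspa1b and its near-identical neighbour Hspa1a share sequence, so the counting could have split reads between them. Hsph1, an HSP110 cochaperone, had 742 CPM from 56 JQ1 members and 201 CPM from 18 control members (ratio 3.69, 2.78 to 4.97), with medians of 452 CPM and 0. Outside the list, the mitochondrial chaperonin genes Hspd1 and Hspe1 had ratios of 3.07 (2.35 to 4.06) and 2.37 (2.02 to 2.79). Nr4a1, an orphan nuclear receptor induced within minutes of a stimulus, had 718 CPM against 272 CPM (ratio 2.64, 2.06 to 3.43), whereas Junb (1405 and 1533 CPM) and Jund (1501 and 1610 CPM) differed little.

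The heat-shock difference was not confined to dendritic members. The Hspa1b ratio was 2.86 in macrophage-gated, 1.39 in T cell-gated, 1.75 in fibroblast-gated, 1.5 in endothelial-gated and 2.19 in keratinocyte-gated barcodes. Hsph1 had ratios of 2.27, 2.48, 1.60, 1.5 and 3.30 in the same order. The part of tissue handling in these values was not tested.

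Hspe1 and Hspd1 lie head to head, and their window held the letters of a heat-shock element, GAANNTTCNNGAA on either strand, in overlapping copies. The letters were present in 0.466% of all 250-base windows. In the Hspe1 window, chr1:55087898-55088147 (plus strand), the copies lay 89 to 72 bases before the start, shown here in capitals because the same bases precede the start of Hspd1 on the other strand.
Hspe1: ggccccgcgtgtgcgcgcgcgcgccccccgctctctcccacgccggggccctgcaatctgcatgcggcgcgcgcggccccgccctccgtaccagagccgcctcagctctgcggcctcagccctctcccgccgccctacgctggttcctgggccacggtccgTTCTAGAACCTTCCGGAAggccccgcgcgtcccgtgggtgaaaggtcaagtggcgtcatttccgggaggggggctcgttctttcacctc
None of the 21 measured genes of the heat-shock and immediate early list with a window held these letters there.

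**Figure D3:**
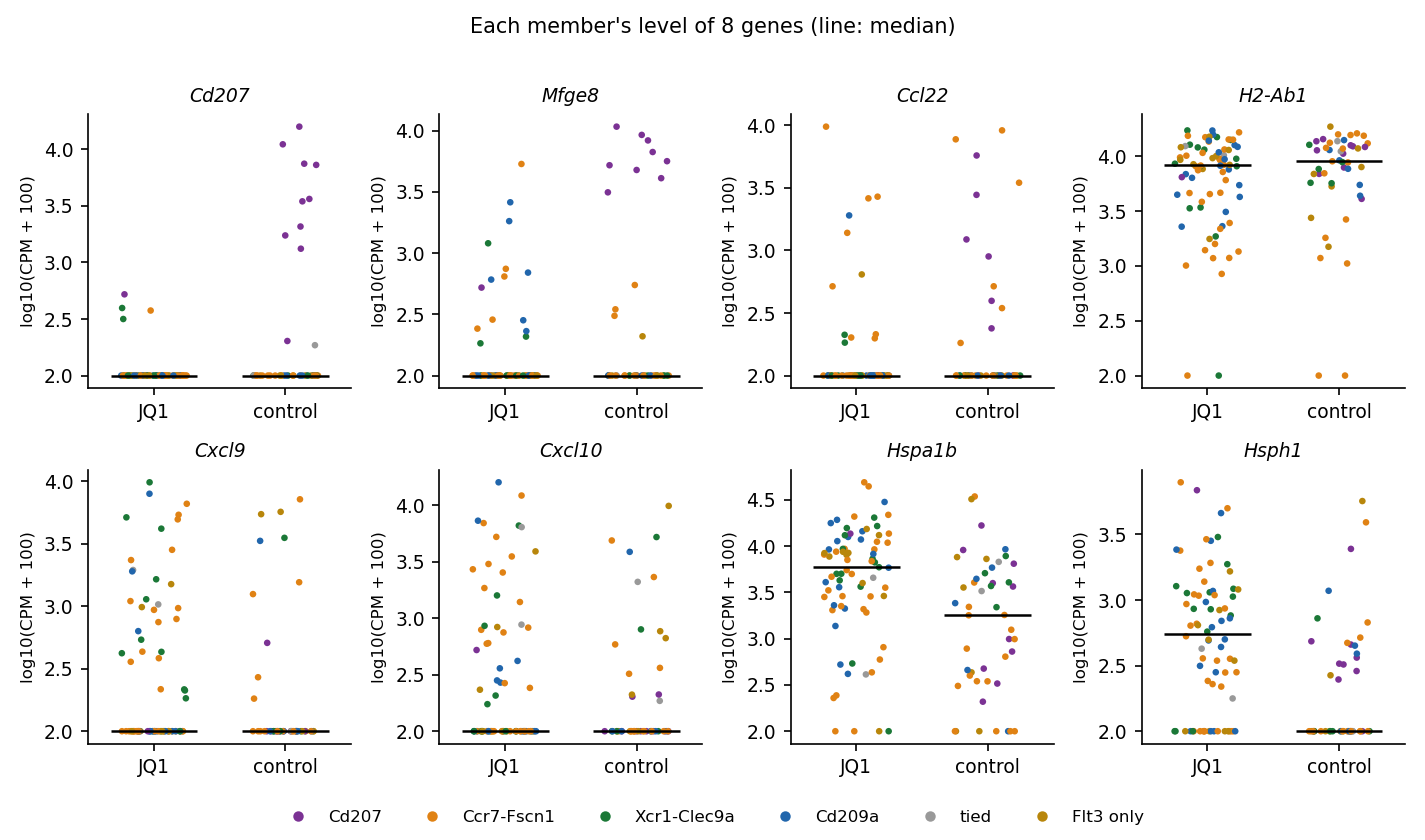
Level of 8 genes in each dendritic member, JQ1 left and control right, on a log scale of CPM with 100 CPM added. Points are members coloured by rule-gene group and lines are medians. Hspa1b medians are 5781 CPM in JQ1 and 1703 CPM in control, and Cxcl9 and Cxcl10 medians are 0 in both. High Cd207 values lie in control members of the Cd207 group, whereas Mfge8 reaches 10687 CPM in control and 5246 CPM in JQ1 members.

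Antigen presentation genes were close between the libraries. Of 8 measured MHC class II pathway genes outside the rule, 0 were 2-fold higher and 2 lower, with a median of 0.07. H2-DMa and H2-DMb1, which load peptide onto class II molecules, had 854 and 583 CPM in JQ1 and 766 and 501 CPM in control. The lower ones were H2-DMb2 (77.2 against 198 CPM) and Rfxap (23.6 against 67.1 CPM), a factor that binds class II promoters. Leaving out the Cd207 group, 0 of 7 measured genes were 2-fold higher or lower, with H2-DMb2 at 75.4 CPM against 145 CPM and Rfxap under 30 UMIs. Of 20 MHC class I and cross-presentation genes 1 was 2-fold higher and 0 lower, with a median of 0.17. That gene was Wdfy4, with 257 CPM from 31 JQ1 members and 127 CPM from 20 control members (ratio 2.02, 1.38 to 3.03). When the Cd207 group was left out 0 of the 20 passed 2-fold, and Wdfy4 had 252 CPM against 151 CPM. H2-K1, a classical class I gene, had 1525 CPM against 1413 CPM. Over the rule's own genes, H2-Ab1 had 8951 CPM in JQ1 and 9789 CPM in control, and Cd74, the invariant chain, 12944 and 15472 CPM.

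Genes of signals sent and received by the members differed in both directions. Of 12 chemokine genes 4 were 2-fold higher (Cxcl1, Cxcl9, Cxcl10 and Ccl4) and 5 lower (Ccl5, Ccl17, Ccl22, Cxcl2 and Cxcl3). Ccl4, which attracts leukocytes, had 2479 CPM in JQ1 and 1211 CPM in control. The neutrophil attractant Cxcl2 had 1175 CPM against 2656 CPM, but without the Cd207 group its log2 ratio was 0.87. In that set 4 chemokine genes were higher (Cxcl1, Cxcl10, Ccl2 and Ccl3) and 4 lower (Ccl5, Ccl17, Ccl22 and Cxcl3). Of 7 cytokine genes 0 passed 2-fold in either direction, and Il1b had 1180 CPM in JQ1 and 1427 CPM in control. Of 15 receptor genes the interleukin 10 receptor gene Il10ra (159 against 60.0 CPM) and Ccr2 (57.9 against 10.6 CPM) were higher, and Il1r2 and Csf1r lower. The control level of Ccr2 rested on only 3 UMIs. Of 13 costimulation and checkpoint genes Cd274 and Tnfsf9 were higher and Cd80 lower. Of 10 receptors and sensors for microbial products, Clec4e and Tmem173, the gene of STING, were higher, and Nlrp3 and Ly75 lower. Without the Cd207 group 1 of 7 cytokine genes was lower (Il1rn), 3 of 14 receptor genes were higher and 1 lower, and 1 of 12 costimulation genes was higher (Tnfsf9) and 0 lower. Of 7 microbial sensor genes 2 were higher and 0 lower there, with Nlrp3 at 121 CPM against 119 CPM.

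Other lists differed little or rested on few members. Of 18 NF-kB genes 1 was 2-fold lower and 0 higher. Of 12 glycolysis and hypoxia genes 0 passed 2-fold, with a median of -0.57. Of 12 apoptosis genes 3 were lower, all of them Bcl2a1 survival genes (Bcl2a1a, Bcl2a1b and Bcl2a1d), near-identical copies among which reads can be split. Only 1 of 12 was lower without the Cd207 group (Bcl2a1a), and without the other-cell members as well 0 of 12. In the set without the Cd207 group 2 of 17 NF-kB genes were higher and 1 lower, and 0 of 11 glycolysis genes passed 2-fold. Mitosis genes were lower, 3 of 4 measured, with a median of -2.44, and summed over the list of 22 genes they had 289.5 CPM in JQ1 and 1049 CPM in control. Again 3 of 4 were lower without the Cd207 group, with a median of -2.74. Tubb4b, a tubulin gene with a UMI in 35 JQ1 and 15 control members, was left out, a choice made after its values were seen. Of the other 21 genes, 5 or more UMIs were found in 1 JQ1 member (1.32%, 0.0333% to 7.11%) and 5 control members (10.6%, 3.55% to 23.1%). The largest member held 54.4% of the JQ1 and 40.7% of the control UMIs of these genes. Of genes often raised by BET inhibitors, Hexim1, an inhibitor of the elongation factor P-TEFb, had 79.3 CPM against 38.8 CPM (ratio 2.04, 1.02 to 4.44), and the other 4 measured stayed within 2-fold. Of 8 genes often lowered by BET inhibitors, Myc (34.3 against 81.2 CPM, ratio 0.422, 0.209 to 0.835), Il7r and Irf4 were lower. Ccnd2 and Ccr2 were higher, with only 3 control UMIs for Ccr2. With the Cd207 group left out, 0 of 5 raised genes were higher and 1 lower (Hist1h1c), with Hexim1 at 75.4 CPM against 41.5 CPM, and of 7 lowered genes Myc and Il7r were lower and Ccr2 and Ccnd2 higher.

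**Figure D4:**
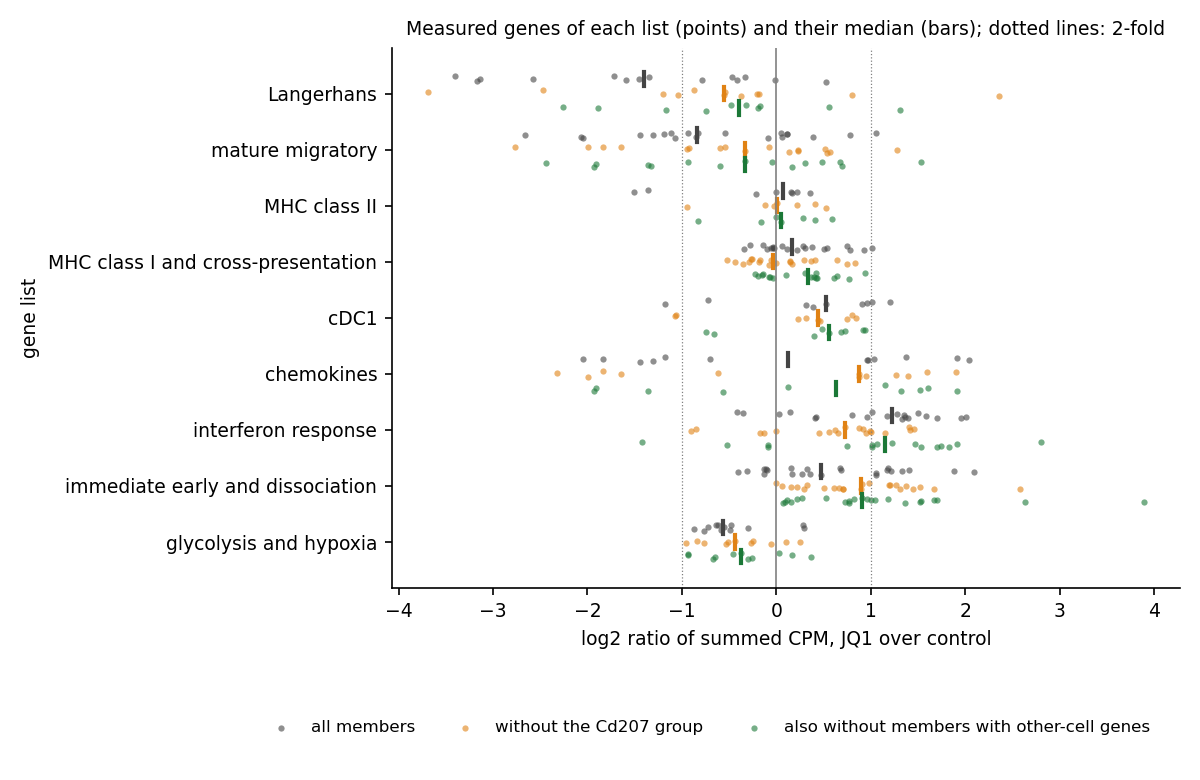
Log2 ratio of JQ1 over control for the measured genes of 9 lists, over all members, without the Cd207 group, and also without members that carry genes of another cell type. Points are genes and bars are list medians. The interferon median is 1.22, 0.73 and 1.15 in the 3 sets, the Langerhans median -1.40, -0.55 and -0.40 and the mature migratory median -0.84, -0.34 and -0.34.

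Among the genes with the clearest ratios, several belonged to no list above or crossed them. Lyz2, the myeloid lysozyme, had 592 CPM from 30 JQ1 members and 120 CPM from 9 control members (ratio 4.93, 3.44 to 7.26). Lyz2 was higher in JQ1 in most other gates too, with ratios of 2.16 in macrophage-gated, 5.23 in fibroblast-gated and 3.80 in endothelial-gated barcodes and 82 against 0 UMIs in T cell-gated ones, but 0.509 in keratinocyte-gated barcodes. Bach1, a repressor of haem-response genes, had 354 CPM against 120 CPM from 44 and 21 members, and the kinase gene Sik1 had 109 CPM against 24.7 CPM from 32 and 6 members. In the other direction Tbc1d4, a regulator of vesicle traffic, was 12.7-fold lower (8.36 to 20.1), Pxdc1 16.3-fold (9.23 to 31.5) and Stmn1, a tubulin-binding protein gene high in dividing cells, 5.65-fold (3.43 to 9.67). In the control library Tbc1d4 and Pxdc1 were at 2067 and 1411 CPM in the 9 Cd207-high members and at 128 and 74.1 CPM in the other 38.

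The Ccr7-Fscn1 group was large enough in both libraries to be compared by itself. Of 1096 genes 11.4% were 2-fold higher and 5.11% lower in JQ1. Mature migratory genes were lower here too, 6 of 13 by 2-fold or more and 0 higher, with a median of -0.66. Ccl22 had 440 CPM from 8 of 32 JQ1 members and 1421 CPM from 6 of 17 control members. Ccl17 had 373 CPM from 8 and 1692 CPM from 6. In control, 48.2% of the Ccl22 UMIs and 66.4% of the Ccl17 UMIs lay in 1 member. Ccr7 itself, the homing receptor, had 709 CPM in JQ1 and 775 CPM in control. Genes of the type 1 lineage were higher, 6 of 7 by 2-fold or more and 0 lower, with a median of 1.73. Among them Wdfy4 had 294 CPM from 11 JQ1 members and 51.7 CPM from 2 control members, and Irf8 612 CPM from 20 and 245 CPM from 5. The type 1 list differed less over other sets. Over all members without other-cell genes 4 of 9 were higher and 0 lower, with a median of 0.67. Without the Cd207 group as well 0 of 9 passed 2-fold, with a median of 0.56. In the Xcr1-Clec9a, Cd209a and Flt3-only groups together 1 of 7 was higher and 0 lower, with a median of 0.37.

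Of the Ccr7-Fscn1 group 12 JQ1 and 3 control members carried genes of another cell type. Without them, with 20 and 14 members and 11.4% of 807 genes higher and 4.58% lower, the mature migratory median was -1.49 with 6 of 11 genes lower, and the type 1 median was 1.87. The Hspa1b ratio in the group was 5.74 (4.68 to 7.11). In the Xcr1-Clec9a, Cd209a and Flt3-only groups together, with 41 JQ1 and 18 control members, 9.34% of 1649 genes were higher and 5.94% lower. Within the Ccr7-Fscn1 group 2 of 9 interferon genes were higher and 0 lower, with a median of 0.45, and without its other-cell members 2 of 4, with a median of 0.48. In the 3 joined groups the interferon list had 3 of 11 genes higher and 0 lower, with a median of 0.80, and the immediate early list 11 of 23, with a median of 0.84. Ccl17 was lower again, at 259 CPM against 647 CPM, with 70.8% of JQ1 UMIs in 1 member.

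Against macrophage-gated barcodes of the same library, chemokine, cytokine and microbial sensor genes were mostly lower in members. In JQ1 9.1% of 4066 genes were 2-fold higher in members and 11.0% lower, and in control 7.53% of 2296 and 6.71%. Of chemokine genes 9 of 16 were 2-fold lower in JQ1 members and 8 of 12 in control members, with 2 higher in each library. The higher ones included Ccl22, 6.85-fold in JQ1 (3.93 to 12.8) and 10.9-fold in control (6.65 to 19.1), and Ccl17, 5.95-fold and 12.4-fold. Il1b had 1180 CPM in members and 2186 CPM in macrophage-gated barcodes of the JQ1 library, and 1427 and 3386 CPM in the control library. Cytokine genes were lower in 9 of 13 in JQ1 and 5 of 8 in control, and receptors and sensors for microbial products in 14 of 16 in JQ1 and 6 of 9 in control. Of NF-kB genes 4 of 20 and 4 of 18 were lower, and of interferon genes 7 of 28 in JQ1 and 5 of 11 in control. As C1q genes, and for members also dendritic genes, set these gates, the comparison is a description of both gates.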

How the data were processed

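Chromium 3′ single-cell libraries of murine HNSCC from the tongue were used, 1 per treatment. Per the submitters' processing notes, Cell Ranger 3.1.0, Seurat 4.0.0 and the build mm10 were used; settings were not given in sources used here. The deposited matrices hold UMI counts, whole numbers per gene and barcode with no normalization. A UMI counts captured molecules, so low-abundance genes are missed in many barcodes, and the lowest barcode held 500 UMIs. Depth per library and per member is given above.

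Members were found by the rule given above, and no doublets were removed. Scrublet in scanpy 1.11.5 called 424 JQ1 barcodes (2 members) and 119 control barcodes (0 members), and leaving them out was an alternative. Raw counts were summed over members per library with numpy 2.4.6 and pandas 2.3.3 and expressed as CPM over all genes. Poisson, Clopper-Pearson and conditional ratio intervals came from scipy 1.17.1. A count of 0 in a ratio was set to 3. With 1 library per treatment no test or p-value is possible. The ratios and their intervals were checked on simulated Poisson counts, which leave out the gathering of UMIs in single members.

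Genes named are measured list members (at least 30 UMIs), those past 2-fold first, and the 10 highest and 10 lowest ratios, ranked by whichever end of the interval lay closer to 1. Genes ranked this way needed at least 50 UMIs, a UMI in 10% of members of the higher library, and a CPM no lower than in all kept barcodes of it. This ranking skipped predicted genes, ribosomal protein, mitochondrial and haemoglobin genes, antigen receptor segments and sex-linked genes. The members and lists were chosen with earlier results of these data known. Alternatives covered the cell filter, doublets, depth, dendritic UMIs, Fscn1, the denominator, scaling, summing, the UMI minimum, the fold and the Cd207 group. Those on C1q and on other-cell members were chosen after seeing the data; such members had 2 UMIs of Pecam1 and Cdh5, 2 of Col1a1, Col1a2 and Dcn, 1 of Ms4a1, 20 of S100a8 and S100a9, or 1% of UMIs from haemoglobin genes or from Muc5b and Bpifb2. Promoter windows and gene positions came from RefSeq (GRCm38.p6), and were used for sequence only. Some items are not reported here.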

Additional observations from a re-analysis of the deposited data

Results flagged for a closer look

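S100a9, a calprotectin gene of neutrophils, differed in direction between members and macrophage-gated barcodes, and the difference was not tested. Its log2 ratio of JQ1 over control was -1.16 in members, from 102 UMIs in 13 JQ1 members and 138 UMIs in 7 control members, and 4.24 in macrophage-gated barcodes, from 305 and 7 UMIs. In members 87.3% of the JQ1 and 94.9% of the control UMIs lay in 1 barcode each.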

How the results depend on the processing

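Of 193 values recomputed for the comparisons 165 stayed near the value reported, and 28 moved. Of 302 for the 32 genes named by size 239 stayed near it, 60 moved and 3 reversed. Medians near 0 could change sign. The costimulation and checkpoint median was 0.011 over all members and -0.0066 without other-cell members. The dendritic difference was -0.760 points among barcodes under the keratin limit. Higher and lower genes numbered 55 and 33 with at least 100 UMIs, and 544 and 494 at 1.5-fold. With no UMI minimum they numbered 1306 and 3106, but these 2 counts do not show a direction. A count of 0 was set to 3, so a gene with fewer JQ1 UMIs than this and 0 in control was counted as lower. Without the Cd207 group and other-cell members 85 were lower. Within the Ccr7-Fscn1 group 34 genes were lower with 2 or more leading UMIs and 37 without other-cell members. Without the Cd207 group the median log2 ratio was -0.34 for mature migratory genes, 0.90 for immediate early genes and 0.87 for chemokines. Without other-cell members as well it was -0.40 for Langerhans, -0.34 for mature migratory, 0.91 for immediate early, 0.63 for chemokine and 0.34 for MHC class I genes. Leaving out other-cell members alone gave 0.33 for MHC class I genes and 0.41 for chemokines. The chemokine median was otherwise 0.16 with size factors, 0.95 with no minimum, 0.14 with the stricter filter, 0.16 without doublet calls and 0.33 with 2 or more dendritic UMIs. The cDC2 median was 0.85 with at least 100 UMIs and 0.93 with 2 or more dendritic UMIs, and the mitosis median -0.37 with at least 100 UMIs. Mfge8 reversed to 2.36 without the Cd207 group and 1.30 without other-cell members as well. Ccl3 reversed to -0.53 with every member weighted equally. The cause was not tested in any of these. The Cd207 group's difference was -17.7 to -28.3 points over its alternatives. No paired analysis was possible because each treatment has 1 library. Depth limits what few members can show: at a floor of 3 counts, a group share of 0 allows up to 3.95% of JQ1 and 6.38% of control members.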
